A study of Rattus norvegicus with 6 samples.

Results

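The S100 proteins described here are the products of 9 genes, S100a1, S100a4, S100a6, S100a8, S100a9, S100a10, S100a11, S100a13 and S100a16. Their mRNAs were read by symbol from a table of gene expression in 6 rat tumors, 9 of its 17557 rows. The family was chosen with its abundance in view, since S100a11 is the highest row of the table in 2 of the tumors, so the levels below are a description and carry no test. All 9 members are on a single row each, and all 9 had a mean of at least 1 FPKM (fragments per kilobase of transcript, corrected for the number mapped), as did 10749 rows of the table.

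Each tumor came from a different Lobund-Wistar rat that was 2 months old when PAIII cells were injected under the skin of the flank. PAIII is a transplantable rat prostate adenocarcinoma kept by passage from rat to rat. Digitoxin, a cardiac glycoside that inhibits the sodium pump, was injected into the peritoneal cavity at 0.03 mg/kg every day from day 10 in rats A1, A6 and A12, the vehicle alone was given to rats B5, B9 and B14, and tumors were taken on day 40. All 6 rats thus carried the same tumor line, and 1 polyadenylated RNA library was made from each, from pooled punches of viable tissue of 1 tumor. The rats sequenced were picked on their serum cytokines, low in the digitoxin group and high in the vehicle group, so the groups differ in that choice as well as in treatment, and the effects of the 2 cannot be told apart.

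The libraries did not sort by group. A12 and B14 were the most alike of all 15 pairs (Pearson r = 0.985 on log2(FPKM + 1) across the 10749 rows), whereas A6 and A12, both labelled digitoxin, gave r = 0.625. The other 4 libraries held mRNAs of lung: 13 genes of alveolar and airway epithelium summed to between 49181 FPKM in B5 and 216694 FPKM in A6, against 43.3 FPKM in A12 and 64.3 FPKM in B14, where 5 and 6 of the 13 were listed at 0. Keratin 8, a marker of simple epithelium and of carcinoma cells, was found in all 6, from 398 FPKM in A6 to 2095 FPKM in A12. The labels and methods call all 6 samples primary tumors, and selected lung metastases of these rats were also frozen. Whether the 4 libraries with lung mRNA hold flank tumor, lung or a mixture was not tested, so their values may not be those of a flank tumor alone. Every direction given for digitoxin rests on the labels of the libraries, and the differences of the 9 members are also given without A12 and B14.

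S100 proteins are small proteins of vertebrates that bind calcium through a pair of EF-hand loops and mostly work as dimers. Inside cells calcium opens a face that grips a target, such as an annexin, a myosin or a ryanodine receptor. Some members are also released and act on cell-surface receptors, above all the receptor for advanced glycation end products (RAGE, gene Ager) and Toll-like receptor 4 (Tlr4). S100a8 and S100a9 form calprotectin, the main cytosolic protein of neutrophils, while S100a10 and S100a11 are partners of annexins in many epithelia and carcinomas, and S100a4 is known for its association with cell motility and metastasis.

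All 9 members lie on chromosome 2 in the coordinates of the table, which belong to a rat assembly that the sources used here do not name and that differs from GRCr8. A first run held S100a1 (209331130 to 209333683), S100a13, S100a16, S100a4, S100a6, S100a8 and S100a9 (209531411 to 209534093) in this order, with gaps of 2.80 to 69.4 kb between listed neighbors. S100a10 and S100a11, 24.1 kb apart, followed after a gap of 1432 kb. Neighbors did not always share a pattern across tumors: S100a13 and S100a16, 13.2 kb apart, were ordered in nearly opposite ways over the 6 tumors, as described below.

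Promoter sequences from RefSeq (assembly GRCr8, 250 bases before to 50 bases after the start of the gene) were at hand for 6 of the 9 members, S100a4, S100a6, S100a9, S100a11, S100a13 and S100a16, and were not used here for S100a1, S100a8 and S100a10. The promoters of 4 members are shown because they come from members at the 2 ends of the pattern described below: S100a9 and S100a4, which were lowest in A12 and B14, and S100a11 and S100a16, which were highest there. They lie on chromosome 2, at chr2:178490573-178490872 for S100a9 (minus strand), chr2:178388279-178388578 for S100a4, chr2:181874882-181875181 for S100a11 and chr2:178313736-178314035 for S100a16 (all plus strand). Capitals mark TATAAA, the TATA box core.
S100a9: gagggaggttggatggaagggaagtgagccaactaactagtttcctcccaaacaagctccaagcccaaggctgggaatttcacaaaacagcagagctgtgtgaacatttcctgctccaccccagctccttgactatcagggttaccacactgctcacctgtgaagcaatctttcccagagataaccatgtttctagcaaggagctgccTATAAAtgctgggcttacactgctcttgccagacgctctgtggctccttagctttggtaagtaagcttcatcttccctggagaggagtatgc
S100a4: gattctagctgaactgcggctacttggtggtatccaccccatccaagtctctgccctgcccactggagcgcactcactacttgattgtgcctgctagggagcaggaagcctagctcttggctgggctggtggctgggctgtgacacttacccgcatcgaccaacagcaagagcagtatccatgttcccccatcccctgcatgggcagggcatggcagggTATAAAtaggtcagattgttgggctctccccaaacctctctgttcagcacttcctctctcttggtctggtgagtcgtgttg
S100a11: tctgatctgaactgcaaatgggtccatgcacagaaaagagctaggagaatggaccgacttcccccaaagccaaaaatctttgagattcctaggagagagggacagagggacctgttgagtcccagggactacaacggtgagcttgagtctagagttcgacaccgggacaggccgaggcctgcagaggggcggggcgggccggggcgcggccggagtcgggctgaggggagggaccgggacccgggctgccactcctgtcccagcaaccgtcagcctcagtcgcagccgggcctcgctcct
S100a16: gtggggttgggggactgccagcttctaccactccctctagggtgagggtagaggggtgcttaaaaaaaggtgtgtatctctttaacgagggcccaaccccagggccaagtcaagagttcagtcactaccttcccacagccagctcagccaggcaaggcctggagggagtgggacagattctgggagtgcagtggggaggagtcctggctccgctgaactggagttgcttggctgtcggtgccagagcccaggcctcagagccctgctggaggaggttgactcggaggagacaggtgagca

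TATAAA began 42 bases before the start in S100a9 and 31 bases before it in S100a4, and was absent on both strands from the other 4 windows, whereas 14.2% of 33469 rat promoters held it. The dinucleotide CG, which is dense in the promoters of many broadly used genes, occurred 1 time in the window of S100a9, 4 times in that of S100a16, 5 times in that of S100a4, 9 times in that of S100a13, 15 times in that of S100a6 and 18 times in that of S100a11, against a median of 7. The window of S100a9 was thus among the poorest in CG, with 5.47% of promoters below it, and that of S100a11 was in the upper part, with 72.5% below. Of the motifs searched on both strands, the letters GGGANNTTCC (a kB core, in 1.30% of promoters), TGANTCA (AP-1, in 7.33%) and TTGCNNAA (C/EBP, in 10.6%) were in none of the 6 windows, which says only that these letters are not there. TATAAA was added to the search after the sequences had been read.

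The 9 members together took 3.99% of the FPKM sum in B9, 4.15% in B14, 4.25% in A12, 5.81% in A1, 7.61% in B5 and 8.50% in A6. FPKM are scaled per length, so members can be compared within a tumor. S100a6, S100a8, S100a9 and S100a11 were the most abundant, with means over the 6 tumors of 11984, 11705, 10682 and 8679 FPKM. Neighbors in this order did not differ beyond their spread, since each of S100a6, S100a8 and S100a9 was above the next member in only 3 of 6 tumors. S100a10 followed at 2477 FPKM, below S100a11 in all 6 tumors, and then S100a4 at 911 FPKM and S100a16 at 591 FPKM, where S100a10 was above S100a4 in 5 tumors and S100a4 above S100a16 in 4. S100a1 at 98.2 FPKM and S100a13 at 34.1 FPKM were the lowest, with S100a16 above S100a1 in all 6 tumors and S100a1 above S100a13 in 4.

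In A12 and B14 the highest row of the whole table was S100a11 and the second was S100a6. In the other tumors S100a11 was ranked 8 in A1, 17 in A6, 8 in B5 and 6 in B9. S100a8 changed rank most among the abundant members, from 4 in A6 to 165 in A12. Among the 20 highest rows of a tumor, 4 were members in A1, A6, B5 and B9, and 3 were members in A12 and B14. The spread over tumors also set the members apart: the highest tumor exceeded the lowest 89.6-fold for S100a1, 59.8-fold for S100a8 and 40.2-fold for S100a9, but 2.11-fold for S100a6, 2.24-fold for S100a16 and 2.66-fold for S100a11.

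**Figure D1:**
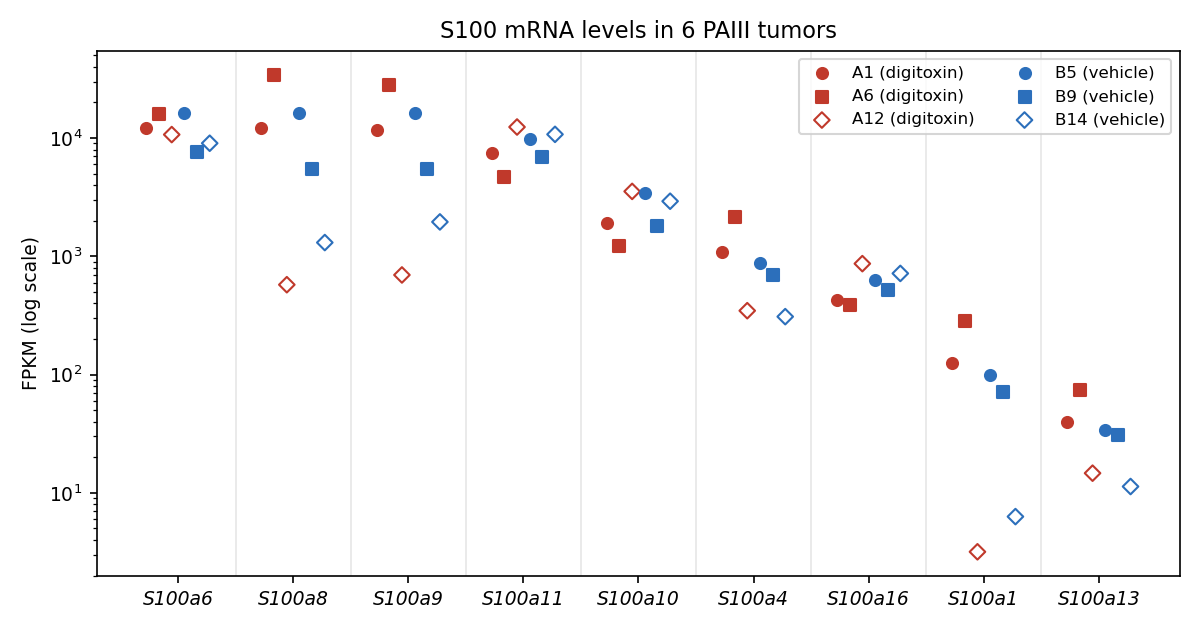
FPKM of the 9 S100 mRNAs on a log axis, 1 point per tumor, with digitoxin and vehicle side by side for each member. Open diamonds are A12 and B14. They lie below the other 4 tumors for S100a1 (3.18 and 6.30 FPKM), S100a4, S100a8, S100a9 and S100a13, and above them for S100a11 (12403 and 10751 FPKM) and S100a16.

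S100a8 and S100a9, the calprotectin subunits, were the most variable of the abundant members. S100a8 was at 12244, 34402 and 576 FPKM in A1, A6 and A12, and at 16249, 5450 and 1308 FPKM in B5, B9 and B14. S100a9 was at 11750, 27959 and 696 FPKM in A1, A6 and A12, and at 16307, 5425 and 1955 FPKM in B5, B9 and B14. A6 was the highest and A12 the lowest tumor for both, and the groups overlapped. The pair shared 1 order of tumors, A6, B5, A1, B9, B14, A12, which for each was that of 81 other rows (0.754% of the rows tested), among them Camp, which encodes the antimicrobial peptide of neutrophil granules.

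The ratio of S100a8 to S100a9, the 2 chains of 1 complex, was 1.04, 1.23 and 0.827 in A1, A6 and A12, and 0.996, 1.00 and 0.669 in B5, B9 and B14. It was lowest in A12 and B14, and its range was narrow beside the 59.8-fold range of S100a8 itself. The 2 mRNAs thus moved over the tumors almost in step (r = 0.997 over 6 tumors on log2(FPKM + 1), a description).

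Markers of neutrophils moved the same way in part. Camp was at 38.1, 101 and 1.71 FPKM in A1, A6 and A12, and at 48.6, 22.5 and 2.71 FPKM in B5, B9 and B14. Of 9 neutrophil genes tested, 6 were lowest in A12 and B14, against 29.3% of all rows, while Mmp9, a gelatinase also made by other cells, was highest there. The 12 neutrophil genes of the list, all in the table, summed to between 590 FPKM in B9 and 799.988 FPKM in A6 among the 4 libraries with lung mRNA, and to 154 FPKM in A12 and 196 FPKM in B14. Lcn2, which epithelia also make, was most of the sum in those 4 libraries (424 to 624 FPKM), and A6 was the highest tumor for only Camp and Ngp of the 9 genes tested. The granule genes Mpo and Ltf of the list were at or near 0 in all 6 tumors (at most 0.270 and 0.0473 FPKM). Cxcr2, the main chemokine receptor of neutrophils, was lowest in A6 (7.95 FPKM), where S100a8 was highest. In bulk tissue fewer cells of a type and less RNA per cell cannot be told apart, and the part of neutrophils or of lung tissue in the levels of S100a8 and S100a9 was not tested.

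S100a4, S100a13 and S100a1 had the same low end. S100a4, also called metastasin, which binds nonmuscle myosin, was at 1091, 2133 and 347 FPKM in A1, A6 and A12, and at 884, 699 and 309 FPKM in B5, B9 and B14. S100a13, which takes part in the release of the growth factor FGF1, was at 40.1, 73.8 and 14.7 FPKM in A1, A6 and A12, and at 33.9, 30.9 and 11.3 FPKM in B5, B9 and B14. Both followed the order A6, A1, B5, B9, A12, B14, as did 231 other rows for each (2.15%), and in each same-numbered pair the digitoxin tumor was above the vehicle tumor. S100a4 is often used as a fibroblast marker. Lum, a matrix proteoglycan of fibroblasts, was at 217 FPKM in A12 and 401 FPKM in B14 but at 3.02 to 8.67 FPKM in the other 4 tumors, and 8 of 9 fibroblast genes tested were highest in A12 and B14, where S100a4 was lowest, against 30.1% of all rows. The part of fibroblasts in the level of S100a4 was not tested.

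S100a1, the family member of heart and skeletal muscle, where it acts on ryanodine receptors, spread over the widest range. It was at 125, 284 and 3.18 FPKM in A1, A6 and A12, and at 98.8, 71.0 and 6.30 FPKM in B5, B9 and B14. The lowest of A1, A6, B5 and B9 was 11.3 times the higher of A12 and B14, a gap wider than that of S100a8 (4.17 times), S100a9 (2.78 times), S100a13 (2.11 times) or S100a4 (2.02 times). Of 7 striated muscle genes tested, 3 were lowest in A12 and B14 as S100a1 was, against 29.3% of all rows. Cardiac troponin I, Tnni3, was at 11.1, 13.8 and 0.604 FPKM in A1, A6 and A12, and at 2.53, 4.26 and 1.05 FPKM in B5, B9 and B14. It thus shared both ends of the S100a1 pattern at a lower level. Cardiac troponin T, Tnnt2, ran the other way, from 5.73 FPKM in A6 to 146 FPKM in A12, and made up most of the summed list of 10 muscle genes in A12 (151 FPKM) but not in A6 (32.1 FPKM). The part of muscle cells in the level of S100a1 was not tested. Ryr2, the cardiac ryanodine receptor, was at most 0.0475 FPKM in any tumor.

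S100a6, or calcyclin, was the steadiest member. It was at 12222, 16027 and 10705 FPKM in A1, A6 and A12, and at 16206, 7698 and 9043 FPKM in B5, B9 and B14. It was the only member whose A12 and B14 values lay inside the range of the other tumors at both ends, with B9 lowest, and its order of tumors was that of only 5 other rows (0.0465%). Cacybp, which encodes the calcyclin-binding protein, followed another course, at 114, 44.1 and 167 FPKM in A1, A6 and A12 and 154, 115 and 170 FPKM in B5, B9 and B14, lowest in A6 where S100a6 was near its highest.

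S100a11, S100a10 and S100a16 had the opposite pattern to the calprotectin pair. S100a11, or calgizzarin, a partner of annexin A1, was at 7509, 4662 and 12403 FPKM in A1, A6 and A12, and at 9818, 6930 and 10751 FPKM in B5, B9 and B14. S100a10, or p11, which forms a tetramer with annexin A2, was at 1917, 1212 and 3541 FPKM in A1, A6 and A12, and at 3450, 1818 and 2924 FPKM in B5, B9 and B14. S100a16 was at 429, 388 and 867 FPKM in A1, A6 and A12, and at 625, 521 and 717 FPKM in B5, B9 and B14. A12 was the highest and A6 the lowest tumor for all of these, and the digitoxin group spanned the vehicle group in each. A12 and B14 stood slightly above the rest where they were highest: the lower of A12 and B14 was 1.10 times the highest other tumor for S100a11 and 1.15 times for S100a16, and S100a10 was higher in B5 than in B14.

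The keratins of the epithelial list shared the tumor order of S100a11 or S100a10, and Epcam and Cdh1 did not. Krt8 was at 1181, 398 and 2095 FPKM in A1, A6 and A12, and at 1618, 1086 and 1629 FPKM in B5, B9 and B14. Its order was that of S100a11, which 88 other rows had (0.819%). The order of S100a10, which 28 other rows had (0.260%), was that of Krt18, Krt19 and of the summed epithelial list. That sum ran from 1408 FPKM in A6 to 4817 FPKM in A12. Epcam was highest in A12 (525 FPKM) but lowest in A1 (208 FPKM). Cdh1, E-cadherin, was lowest in A12 (90.9 FPKM) and highest in B9 (135 FPKM). Of the 5 epithelial genes tested, 1 was highest in A12 and B14, against 30.1% of all rows. The part of epithelial content in S100a10, S100a11 and S100a16 was not tested. RefSeq lists 5 pseudogenes and 2 protein-coding copies of S100a11 and 1 pseudogene of S100a10 in GRCr8, and none of these had a row, so reads from such copies could be split or shared and both values are uncertain to that extent.

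**Figure D2:**
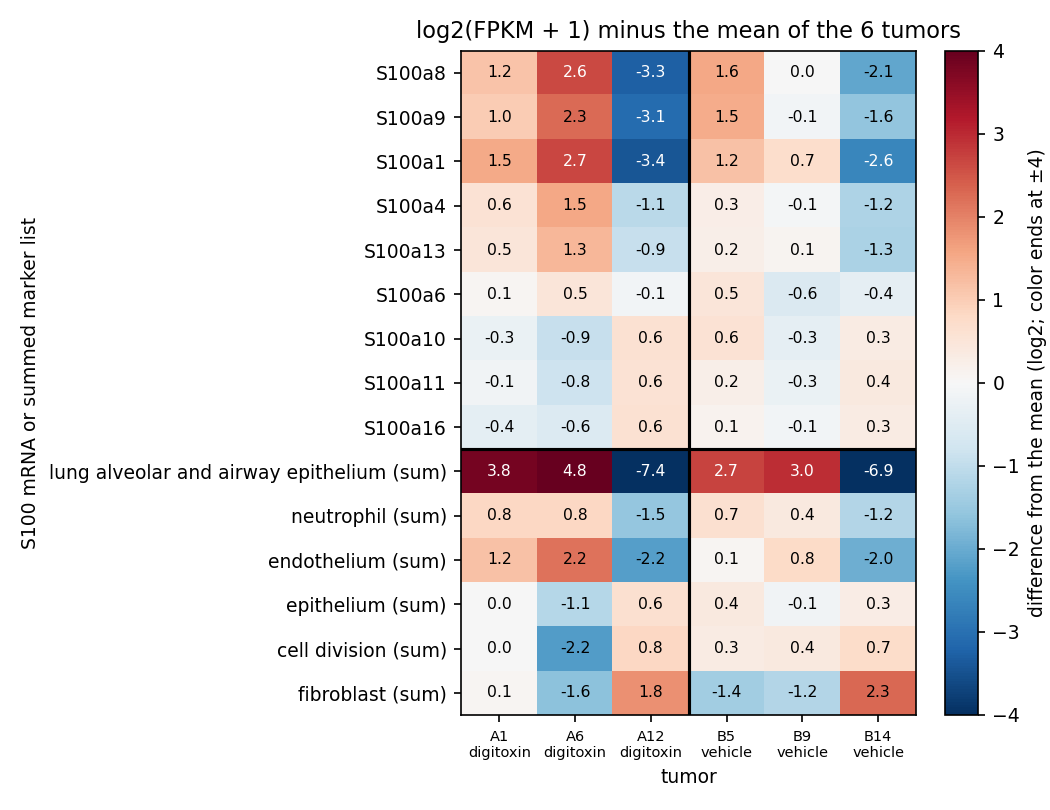
Color map of log2(FPKM + 1) minus the mean of the 6 tumors for each S100 mRNA and for 6 summed marker lists, 1 column per tumor, with colors ending at 4 units either way. S100a1, S100a8 and S100a9 are low in A12 and B14 and high in A6, and S100a10, S100a11 and S100a16 run the other way with a smaller range.

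A12 and B14 were the 2 lowest tumors for 5 of 9 members, S100a1, S100a4, S100a8, S100a9 and S100a13, against 29.3% of all rows tested. They were the 2 highest for 2 of 9 members, S100a11 and S100a16, against 30.1% of all rows. Either position was thus common over the table, and neither is particular to the S100 genes. A6, the library with the most lung mRNA, was the highest tumor for 5 members and the lowest for 3, whereas over all rows it was highest in 23.9% and lowest in 50.4%. Between the 2 tumors with little lung mRNA, the digitoxin tumor A12 was below the vehicle tumor B14 for S100a9 (ratio 0.356), S100a8 (0.440) and S100a1 (0.504), and above it by 1.12 to 1.30 times for the other members, a comparison of 1 tumor with 1 that has no replicate check.

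The digitoxin and vehicle groups were compared with limma on log2(FPKM + 1) over all 10749 rows, 3 tumors against 3. None of the 9 members had an adjusted p under 0.05, and neither did any other row (0% of rows, smallest adjusted p = 0.926). At an unadjusted p under 0.05 there were 0 members and 36 rows (0.335%). The groups of 3 did not overlap for 0 members and for 447 rows (4.16%). The samples are single tumors of separate rats, so the spread within a group includes that between rats. Lung mRNA also differed within each group, and its part in this spread was not tested.

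The calprotectin chains showed how wide that spread was. S100a8 averaged 15741 ± 17182 FPKM (SD, n = 3) with digitoxin and 7669 ± 7714 FPKM (n = 3) with vehicle, a fitted log2 difference of 0.36 with a 95% interval from -3.71 to 4.43 (limma, adjusted p = 0.970). S100a9 averaged 13468 ± 13712 and 7895 ± 7488 FPKM, a log2 difference of 0.13 (interval -3.51 to 3.78). The intervals allow changes of over 3 log2 units either way, so these tumors say little on the size of a change in calprotectin mRNA.

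None of the other mean differences exceeded its standard error. S100a4 averaged 1190 ± 897 FPKM (SD, n = 3) with digitoxin and 631 ± 293 FPKM with vehicle, a log2 difference of 0.69 (SE 0.74, interval -1.10 to 2.48, limma adjusted p = 0.926). S100a13 averaged 42.8 ± 29.6 and 25.4 ± 12.3 FPKM, a log2 difference of 0.60 (SE 0.68). With the replicate number as a block the SE was 0.36 for S100a4 and 0.30 for S100a13, at an adjusted p of 0.638 for both in limma. S100a1 averaged 138 ± 141 and 58.7 ± 47.4 FPKM, a log2 difference of 0.51 (SE 1.78). The steadier members had narrower intervals. S100a6 averaged 12985 ± 2742 and 10983 ± 4574 FPKM, a log2 difference of 0.30 (interval -0.95 to 1.54). S100a11 averaged 8191 ± 3915 and 9166 ± 1992 FPKM, a log2 difference of -0.25 (interval -1.52 to 1.02). S100a10 and S100a16 gave -0.39 (interval -1.59 to 0.82) and -0.23 (interval -1.12 to 0.65), so that of the 9 members the difference was bounded most closely for S100a16.

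The median log2 difference of the 9 members was 0.30, beside -0.16 over all rows tested, and 3 members lay below 0 where 64.9% of all rows did. The median of the members turned with single tumors left out: it was -0.12 without B14 or without A1, -0.0142 when A6 was omitted, and 1.21 when A12 was. Relative to the median of all rows, 6 members were higher and 3 lower under the deposited scale, median-of-ratios scaling and scaling to a common sum, although S100a9 went to -0.0489 on its own scale in the last. Another scaling moved the median of all rows by 0.18 or by -0.17. Without A12 and B14, an alternative added after the data were seen, S100a1 had a log2 difference of 1.16 (SE 0.42, unadjusted p = 0.032 in limma, adjusted p = 0.392), S100a8 of 1.12 and S100a4 of 0.96. S100a1 was the 1 member of 9 at an unadjusted p under 0.05 in that fit, beside 1183 rows (11%), a share like that of all rows. No member passed an adjusted p of 0.05 there, beside 2 rows (0.0186%). S100a9, S100a13 and S100a6 gave 0.95, 0.73 and 0.33. The lung list split by group in the same 4 tumors, at 107577 and 216694 FPKM in A1 and A6 against 49181 and 59613 FPKM in B5 and B9, and the endothelial list at 649 and 1323 against 305 and 494 FPKM. The part of lung content in these differences was not tested. The same 4 tumors gave -0.72 for S100a10 and -0.48 for both S100a11 and S100a16, beside a median of 0.73 over the members and -0.24 over all rows.

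**Figure D3:**
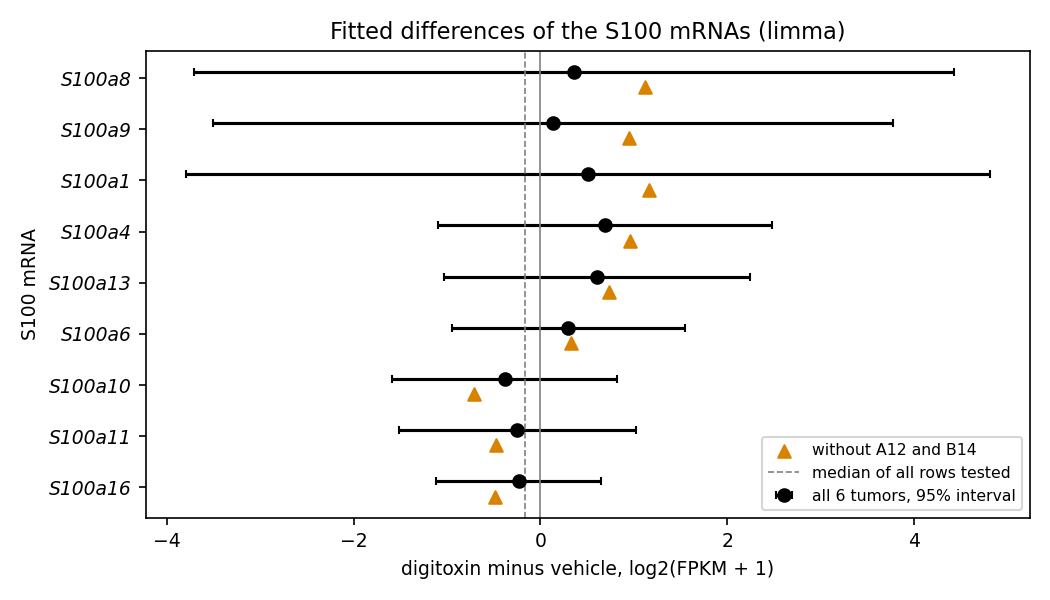
Log2 difference of each S100 mRNA, digitoxin minus vehicle, with 95% limma intervals for all 6 tumors (points) and the value without A12 and B14 (triangles). The dashed line is the median of all rows (-0.16). Every interval of the 6-tumor fit crosses 0, and that of S100a1 runs from -3.80 to 4.81.

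The genes that S100 proteins act through were taken from lists. For the intracellular partners, 12 of 16 listed genes were tested, with 0 past an adjusted p of 0.05 and a median log2 difference of -0.20. Of the 12, 5 lay above 0 and 7 below, where 64.9% of all rows lay below 0. Annexin A2, the partner of S100a10, was at 1928, 779 and 4049 FPKM in A1, A6 and A12, and at 2817, 2210 and 3630 FPKM in B5, B9 and B14. Annexin A1, the partner of S100a11, was at 2060, 775 and 3439 FPKM in A1, A6 and A12, and at 4987, 2719 and 3422 FPKM in B5, B9 and B14. Both were lowest in A6, as their S100 partners and 50.4% of all rows were. The log2 differences were -0.63 (SE 0.63) for Anxa2 and -1.03 (SE 0.61) for Anxa1 (limma, adjusted p = 0.926 each). Anxa4, Anxa5, Anxa6 and Anxa11 were lowest in A12 and B14 instead, as were 29.3% of all rows.

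Ratios of partner mRNAs were computed within each tumor, where the scaling of the library drops out. S100a10 to Anxa2 was 0.994, 1.56 and 0.875 in A1, A6 and A12, and 1.22, 0.823 and 0.806 in B5, B9 and B14, near parity and with the groups overlapping. S100a11 to Anxa1 was 3.65, 6.01 and 3.61 in A1, A6 and A12, and 1.97, 2.55 and 3.14 in B5, B9 and B14. Every digitoxin tumor was above every vehicle tumor in this ratio, at 4.42 ± 1.38 against 2.55 ± 0.587 (SD, n = 3 each). The ratio was computed after the values were seen, and the ratio of S100a11 to 357 of 10276 rows (3.47%) also kept the groups apart, so its separation is given as a description with no test.

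**Figure D4:**
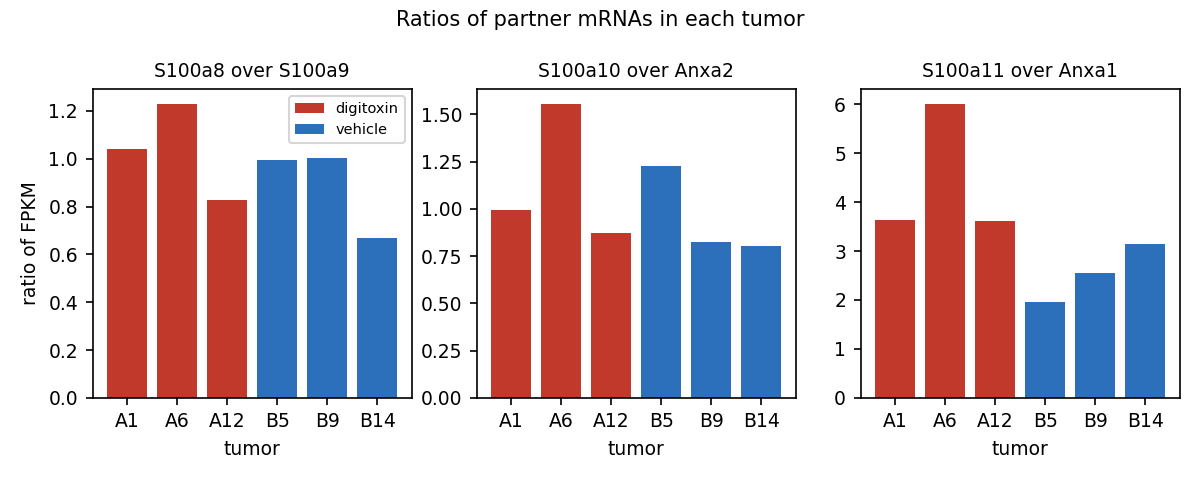
Ratios of FPKM within each of the 6 tumors, with bars from 0, for S100a8 to S100a9, S100a10 to Anxa2 and S100a11 to Anxa1. The first 2 lie between 0.669 and 1.56, and the third lies between 1.97 and 6.01 with all digitoxin tumors above all vehicle tumors.

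Of the 8 listed receptors and coreceptors, 7 were tested, with 0 past an adjusted p of 0.05 and a median log2 difference of -0.56. Of the 7, 2 lay above 0 and 5 below, where 64.9% of all rows lay below 0. Ager, which encodes RAGE and is in lung a marker of alveolar type I cells, was at 2092, 4574 and 0.840 FPKM in A1, A6 and A12, and at 965, 1529 and 0.975 FPKM in B5, B9 and B14. It thus followed the lung list, of which it is also a member, and was near 0 where lung mRNA was. Tlr4, the other receptor of S100a8 and S100a9, was at 2.34 to 9.58 FPKM, lowest in A12 and highest in B9. Bsg, which encodes basigin, a receptor of S100a9, was at 682 to 935 FPKM with little spread (log2 difference 0.12, SE 0.24).

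Of 15 further genes of the S100 and S100-fused family, 8 were in the table and 6 were tested. In the 6, 2 lay above 0 and 4 below, where 64.9% of all rows lay below 0. There were 0 past an adjusted p of 0.05, and the median log2 difference was -0.56. S100g, calbindin D9k, was the only one of these at a level like the members, at 868, 2755 and 0 FPKM in A1, A6 and A12, and at 788, 867 and 0 FPKM in B5, B9 and B14. It was listed at 0 in exactly the tumors with little lung mRNA, as were the surfactant genes Sftpb and Sftpa1. S100a3, S100a7a, S100b, S100z and S100pbp, which encodes an S100P-binding protein, stayed at or below 15.3 FPKM in every tumor. S100a7a and S100z were listed at 0 in A6 and highest in A12, at 12.2 and 15.3 FPKM.

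The mRNAs most like a member over the 6 tumors were named by Pearson r of log2(FPKM + 1), as a description over 6 tumors that share the split in lung content. For S100a11 they were Tax1bp3 (r = 0.997), Gar1 (0.996) and Csda (0.995), with 383 rows above r = 0.95. For S100a9 they were RT1-CE14 (0.998), Cd302 (0.998) and Retnlg (0.997), with 206 rows above 0.95. Retnlg, a resistin-like gene of myeloid cells, was at 120, 289 and 4.76 FPKM in A1, A6 and A12, and at 195, 44.1 and 13.5 FPKM in B5, B9 and B14. For S100a4 they were Pla2g16 (0.999), Sfxn4 (0.998) and Gpx1 (0.998), with 626 rows above 0.95. For S100a1, with 930 such rows, they were Kctd6 (0.9999), Nudt7 (0.999) and Ogfrl1 (0.998).

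Within the family, correlations over the 6 tumors fell into the same 2 sets. Among S100a1, S100a4, S100a8, S100a9 and S100a13, r ran from 0.904 to 0.997, and S100a10, S100a11 and S100a16 gave r of 0.904 to 0.969 among themselves. Every r between the 2 sets was negative, from -0.632 for S100a9 with S100a10 to -0.918 for S100a1 with S100a16. S100a6 lay between, with r of 0.536 to 0.659 with the first set and of -0.123 to -0.350 with the second. These values rest on 6 points of which A12 and B14 are far from the rest, and they carry no test.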

How the data were processed

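Polyadenylated RNA from 6 PAIII tumors, 3 from digitoxin-treated and 3 from vehicle-treated rats, was made into TruSeq libraries by the authors and sequenced as single reads on a Genome Analyzer IIx. Reads passed through CASAVA and FastQC, were aligned with Bowtie 2 and TopHat 2, and were quantified with Cufflinks 2. The authors deposited 1 FPKM value per row and tumor, and their methods write RPKM for the output of Cufflinks. The submitters' processing notes list the human build hg19, whereas the table holds rat chromosomes 1 to 20, X and 17 rows on AABR06 scaffolds, so positions are given as in the table. The differential test of the authors, Cuffdiff, needs reads and was not repeated. Depth is unknown: the most frequent ratio between low values of 2 libraries (a narrow bin) held only 1.36 to 3.19% of rows. No counting error can therefore be given, and a listed 0 can be a failed estimate, since Col1a2 was at 0 in all 6 tumors.

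Groups were taken from the labels. limma 3.58.1 in R 4.3.3 (lmFit, eBayes with trend, two-sided, Benjamini-Hochberg) was applied to log2(FPKM + 1) of the 10749 rows that averaged 1 FPKM or more, and tested on simulated data. Fold changes on this scale understate those of low mRNAs. Summaries were made with Python 3.11.15, numpy 2.4.6 and pandas 2.3.3, and plots with matplotlib 3.10.9. Named genes are the 9 members, listed partners and receptors, marker genes beside the members they move with, and the 3 rows most alike to S100a11, S100a9, S100a4 and S100a1. The members and lists were chosen with earlier results of these data known. The ratios to annexins, the TATAAA search, and the omission of A12 and B14 were added after values were seen. Alternatives were no filter on low values, 0.1 as pseudocount, scaling by median of ratios or to a common sum (TPM), no trend, the replicate block, and omission of each tumor.

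Replicate numbers come from the labels. Deviations of same-numbered tumors from their group means correlated across rows at r = 0.426 (A1, B5), 0.606 (A6, B9) and 0.869 (A12, B14). The crossed pairs A1 with B9 (0.644) and A6 with B5 (0.612) were closer than A1 with B5 and A6 with B9. The numbers therefore do not set those pairs apart by that measure, and no source names a shared day.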

Additional observations from a re-analysis of the deposited data

How the results depend on the processing

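Under every alternative run, no member passed an adjusted p of 0.05 in limma. Rows past it numbered 0 in all 6 tumors and 0 to 2 with 1 tumor left out, the 2 being without B14, and 2 with A12 and B14 left out together. The median of the members ran from -0.12 to 1.21 with 1 tumor left out, the highest without A12. Directions turned for S100a1 (-0.70 without A6 to 2.34 without A12), S100a8 (-0.88 to 2.07), S100a9 (-0.96 to 1.70) and S100a11 (-0.61 without A12 to 0.0991 without A6). S100a9 was at -0.0489 with TPM scaling. S100a1, S100a8 and S100a9 were below 0 without A1, A6 or B14. The cause was not tested. S100a4, S100a6, S100a10, S100a13 and S100a16 kept their direction with each of the 6 tumors left out, but came within 0.10 of 0 without A6, or for S100a6 to 0.08 without B9. Rows at an unadjusted p under 0.05 numbered 36, against 446 with the replicate block, 2114 without A12, 1183 without A12 and B14, and 185 with no filter on low values. With the replicate block 0 rows and 0 members passed an adjusted p of 0.05, the smallest of the members was 0.638 (S100a4 and S100a13), and no call changed. Depth is unknown, so the low values of S100a1 in A12 and B14 have no stated precision.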

Other observations

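Among other EF-hand calcium binders outside the S100 family, 10 of 14 listed genes were tested. In the 10, 1 log2 difference lay above 0 and 9 below, where 64.9% of all rows lay below 0. There were 0 past an adjusted p of 0.05 in limma, and the median was -0.16, the same as that of all rows. Ocm, which encodes oncomodulin, an EF-hand protein known from tumors and hair cells, was at 388, 6.40 and 749 FPKM in A1, A6 and A12, and at 829.7, 597 and 559 FPKM in B5, B9 and B14. It was lowest in A6, as S100a10, S100a11, S100a16 and 50.4% of all rows were (log2 difference -2.34, SE 1.68). Efhd2, or swiprosin, was at 508 and 457 FPKM in A12 and B14 and at 113 to 284 FPKM elsewhere. Aif1, an EF-hand gene of macrophages, shared the order of tumors of S100a8 and S100a9, from 511 FPKM in A6 to 106 FPKM in A12.

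Cell division genes, 6 of 6 tested, all had log2 differences below 0, where 64.9% of all rows did (median -1.35, 0 past an adjusted p of 0.05). Their sum was 51.6 FPKM in A6, the lowest tumor in 50.4% of all rows, and 246 to 438 FPKM elsewhere. It was highest in A12, as S100a11 was. Of 9 macrophage genes tested, 4 were lowest and 3 highest in A12 and B14, and of 7 endothelial genes 6 were lowest there. Over all rows 29.3% were lowest and 30.1% highest there. The Schwann cell and fat lists had 1 tested gene each, with sums of at most 1.94 and 4.60 FPKM in any tumor.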
